A study of Mus musculus with 10 samples.

Results

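Potassium channels let potassium ions leave or enter a cell along their gradient and so set the resting membrane potential, shape the action potential and time its repetition. Pore-forming subunits assemble as tetramers or, in the channels with paired pore domains, as dimers, and accessory subunits change their gating and their transport to the membrane. Radial progenitors of the forebrain are known for a negative resting potential carried largely by inward rectifier and leak channels, whereas many voltage-gated channels come into use in neurons. The genes described here are all protein-coding mouse genes on chromosomes 1 to 19 whose symbol starts with Kcn, with Kcnq1 left out. They number 91 of 20661 protein-coding genes on those chromosomes in the RefSeq annotation of GRCm38.p6. They comprise 16 voltage-gated (Kv) alpha subunits, 10 silent Kv modifiers, 8 ether-a-go-go channels, 4 Kv7 channels, 12 Kv accessory subunits, 12 calcium- and sodium-activated channels with their beta subunits, 15 inward rectifiers and 14 2-pore channels.

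Histone marks were mapped by native ChIP-seq, in which chromatin is immunoprecipitated without crosslinking, in neural stem and progenitor cells cultured from E13.5 mouse forebrain. The crotonate group received 10 mM crotonate, a short-chain fatty acid from which cells make crotonyl-CoA, for 24 h, and the control group received water for the same time. Both groups were kept at passage 2 to 3 in medium with epidermal and fibroblast growth factor at 20 ng/ml each, which keeps such cells dividing, so the data describe cultured cells and not the embryonic brain. For each treatment there was 1 library each for H3K4me3 (a mark of promoters), H3K9cr (crotonylation of histone H3, found on active chromatin), H3K27ac (active promoters and enhancers) and H3K27me3 (set by Polycomb repressive complexes). With 1 library per mark and treatment no difference below has a replicate check, no test was made between treatments, and the treatment cannot be told apart from the library. Per the labels, the catalogue number of each antibody was the same in both treatments, but the vendor named for H3K4me3 and for H3K27me3 was not the same, and the crotonate libraries of H3K9cr and H3K27ac have no vendor. The labels used here do not give the strain, the sex or the number of embryos.

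The 8 peak lists held 18001 H3K4me3, 32666 H3K9cr, 59868 H3K27ac and 34707 H3K27me3 peaks after crotonate, and 17322, 31905, 52922 and 26031 in control in the same order of marks. The depth of the libraries is unknown. The median summit pileup, the height of stacked fragments, was 374, 41, 17 and 15 after crotonate and 423, 74, 23 and 16 in control, so the H3K9cr and H3K27ac lists held lower peaks after crotonate throughout the genome. All 7 markers of neural stem and progenitor cells (such as Sox2, Nes and Pax6) carried H3K4me3, H3K9cr and H3K27ac in both treatments. Of the 4 microglia markers only Aif1 carried H3K4me3, in both treatments, and of the 4 vessel markers Pecam1 carried it after crotonate only and Pdgfrb in control only. The H3K4me3 at Aif1 covered only 0.33 kb after crotonate and 0.268 kb in control of the gene and its 5 kb flanks. H3K27ac lay at 2 of the 4 microglia markers, Aif1 and Csf1r, in both treatments, and Tmem119 and Cx3cr1 had none of the active marks. Of the 4 vessel markers, 3 carried H3K27ac after crotonate and 1 in control. Pecam1 carried it in both, over 11.4 and 13.6 kb, with H3K9cr over 5.72 and 7.13 kb. H3K4me3 also lay at 5 of 5 neuron, 3 of 4 astrocyte and 4 of 4 oligodendrocyte lineage markers in both treatments. H3K27me3 lay at 4 of the 5 neuron markers after crotonate and 4 in control, and H3K27ac at 3 and 4. Of the 4 oligodendrocyte lineage markers 3 and 4 carried H3K27me3, and of the 4 astrocyte markers 1 and 2. Of the 7 progenitor markers 3 and 3 carried it, of the microglia markers 1 and 1, and of the vessel markers 2 and 2.

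Each channel gene was given a window of its body and 5 kb on either side. A crotonate peak with no overlapping control peak of the same mark is called gained, a control peak with no overlapping crotonate peak lost, and the others shared. These words refer to the lists only, since a peak that just missed the threshold of 1 list and just passed it in the other is then called gained or lost. Channel genes are long, with a median of 32.9 kb against 17.5 kb for all genes, and 22 of them (24.2%, against 11.2% of all genes) reach 100 kb. Longer windows hold more peaks, so counts are given beside those of all genes. The windows of 33 channel genes also touch another protein-coding gene, whose peaks are then counted too.

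Most channel genes carried both an active mark and H3K27me3. H3K4me3 lay in the window of 73 of 91 genes (80.2%) after crotonate and 72 (79.1%) in control, against 69.7% and 68.4% of all genes. H3K9cr lay in 76 windows after crotonate and 75 in control (72.2% and 71.0% of all genes) and H3K27ac in 62 and 63 (70.3% and 69.5% of all genes). H3K27me3 lay in 65 windows (71.4%) after crotonate and 66 (72.5%) in control, against 36.1% and 35.1% of all genes. The difference from all genes was also seen among genes of like length: in control, H3K27me3 marked 58.8% of channel genes shorter than 20 kb against 28.6% of all genes of that length, 77.1% against 37.2% from 20 to 100 kb, and 86.4% against 59.4% from 100 kb. The 4 marks were present together in 43 windows after crotonate and 45 in control. Kcnrg, Kcnk7, Kcnv2 and Kcnu1 had no peak of any mark in either treatment. The combination of marks was the same in both treatments in 70 genes and different in 21 (23.1%, against 15.6% of all genes).

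For either acylation, at most 4 channel genes carried it in a given treatment only. H3K9cr was found after crotonate alone at Kcnmb1 (1.1% of channel genes, against 1.89% of all genes). It was found in control alone at no channel gene (0.649% of all genes). H3K27ac was found after crotonate alone at Kcnj13, Kcnk18 and Kcna1 (3.3%, against 2.57% of all genes), with highest fold enrichments of 2.99, 4.08 and 5.16. In control alone it was found at Kcnmb1, Kcng3, Kcng1 and Kcnmb2 (4.4%, against 1.76% of all genes), with 3.89, 2.38, 3.89 and 3.22. Fold enrichment is the authors' own ratio of pileup to local background. Of the H3K27ac peaks, the one of Kcna1 stood at the 54.6 percentile of its list by -log10 q and the others lower.

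**Figure D1:**
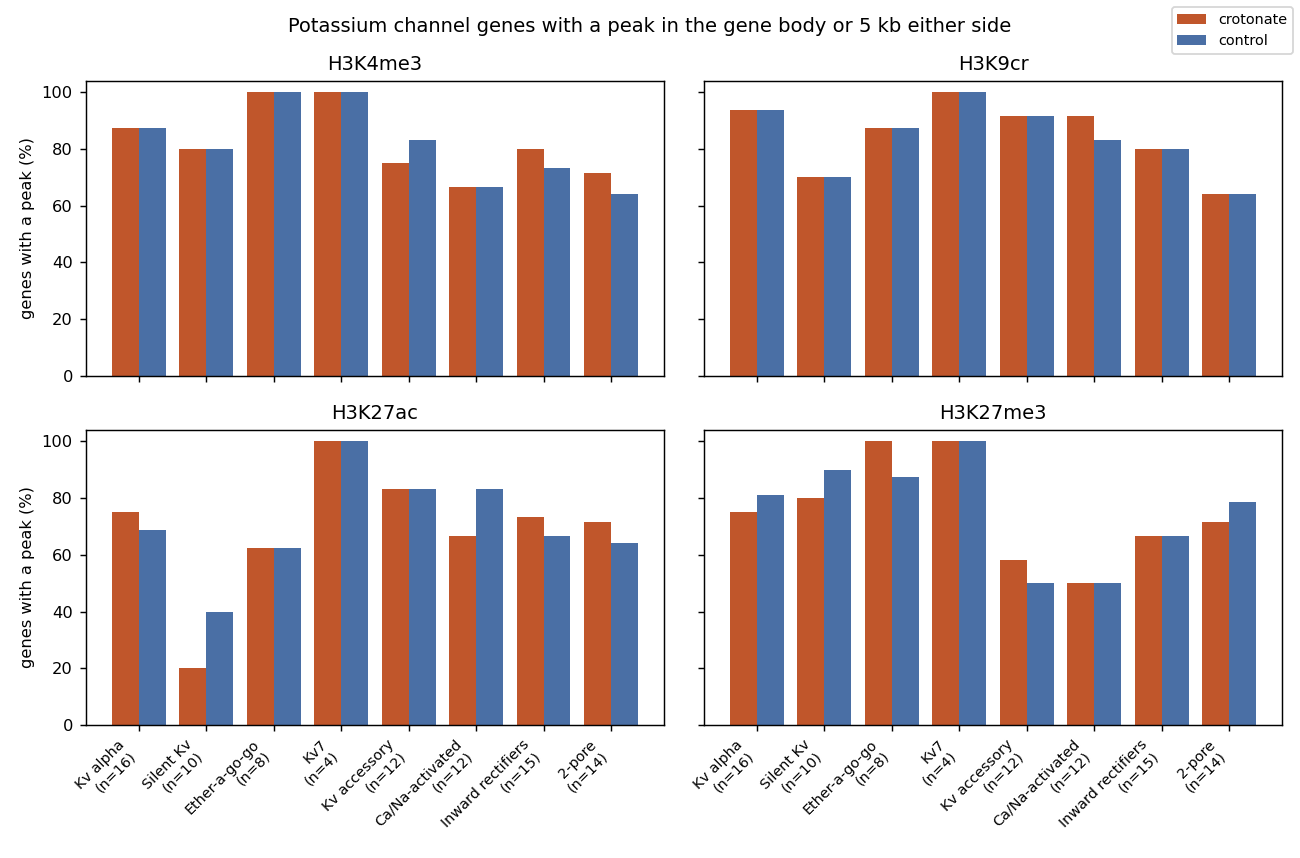
Percentage of the genes of each potassium channel subfamily (number of genes in brackets) with at least 1 peak in the gene body or 5 kb either side, in crotonate (orange) and control (blue), 1 panel per mark and 1 library per bar. Silent Kv modifiers stand low for H3K27ac (2 genes after crotonate, 4 in control) and high for H3K27me3 (8 and 9 of 10), and the 4 Kv7 genes carried every mark in both treatments.

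Peaks found in 1 treatment only were a minority for every mark. Of the H3K4me3 peaks in channel windows, 12 of 117 crotonate peaks were gained (10.3%, 95% interval 5.41 to 17.2) and 4 of 112 control peaks lost (3.57%, 0.982 to 8.89), where 5.47% and 1.77% of the peaks in all gene windows were gained and lost. For H3K9cr, 33 of 191 were gained (17.3%, 12.2 to 23.4) and 29 of 185 lost (15.7%, 10.8 to 21.7), against 14.7% and 11.9% in all gene windows. H3K27ac had 90 of 297 gained (30.3%, 25.1 to 35.9) and 75 of 263 lost (28.5%, 23.1 to 34.4), against 31.4% and 23.2%. H3K27me3 had 78 of 212 gained (36.8%, 30.3 to 43.7) and 39 of 168 lost (23.2%, 17.1 to 30.3), against 38.6% and 25.4%. The intervals are exact (Clopper-Pearson) and cover counting error only. Each of them held the value of all gene windows, which lay near the lower bound for gained H3K4me3 and for lost H3K27ac peaks. The shares depend on the overlap asked for. With 50% of both peaks required, 29.3% of H3K9cr, 54.5% of H3K27ac and 58.0% of H3K27me3 peaks were gained, and 12.5% of H3K4me3, 27% of H3K9cr, 48.3% of H3K27ac and 47.0% of H3K27me3 peaks were lost.

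H3K4me3 peaks at channel genes were weaker than at other genes. Their median fold enrichment was 40.0 after crotonate and 34.9 in control, against 109 and 122 in all gene windows. Peaks without a partner were mostly weak. In the weakest quartile of each list, 29.3% of the crotonate H3K4me3 peaks in channel windows were gained and 28.4% of those in all gene windows, and 9.09% and 9.01% of the control peaks were lost. For the other marks the gap within a quartile was wider in places: 61.9% of the weakest crotonate H3K27ac peaks were gained in channel windows (50.7 to 72.3) and 70.7% in all gene windows. Peaks of H3K27me3 in the weakest quartile were gained in 81.1% (64.8 to 92.0) of cases in channel windows and 70.6% in all gene windows, and the strongest quartile in 1.2% and 1.83%.

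**Figure D2:**
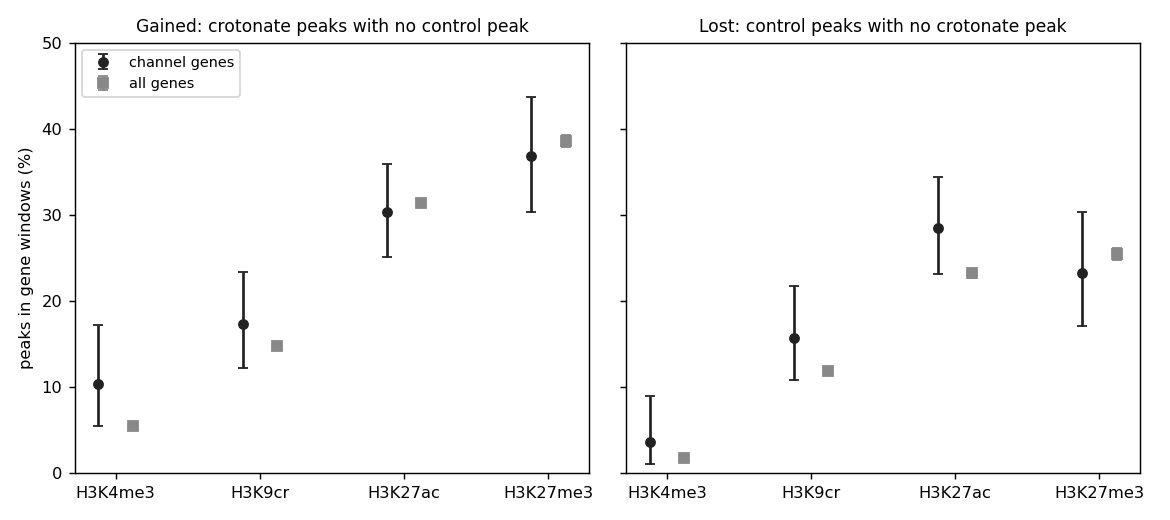
Percentage of peaks that had no overlapping peak in the other treatment, by mark, in the windows of channel genes (black circles) and of all protein-coding genes (grey squares), with exact 95% intervals for counting error. The left panel gives crotonate peaks without a control partner, the right panel control peaks without a crotonate partner. The shares of channel genes run from 3.57% for lost H3K4me3 to 36.8% for gained H3K27me3; for H3K4me3 they lie above those of all genes (10.3% against 5.47% gained, 3.57% against 1.77% lost), and all intervals hold the value of all genes.

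Summed covered length had ratios between treatments close to those of all gene windows. H3K4me3 peaks covered 171 kb of the channel windows after crotonate and 151 kb in control, a ratio of 1.14 where all gene windows had 1.06. The covered length was wider after crotonate in 59 genes (64.8%, against 48.7% of all genes), narrower in 15 (16.5%, against 21.1%) and equal in 17. Of the windows that differed, 79.7% were wider, against 69.8% for all genes. H3K27ac covered 256 kb after crotonate and 296 kb in control (ratio 0.866, all gene windows 0.899), and was wider in 22 genes (24.2%, against 22.9% of all genes) and narrower in 44 (48.4%, against 49.1%). H3K9cr covered 220 and 222 kb (0.989, all gene windows 0.974) and H3K27me3 397 and 385 kb (1.03, all gene windows 1.04). H3K27me3 was wider in 35 genes (38.5%, against 20.4% of all genes) and narrower in 36 (39.6%, against 19%). A larger share of the channel windows carried this mark at all. Of the windows that differed, 49.3% were wider, against 51.7% for all genes.

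**Figure D3:**
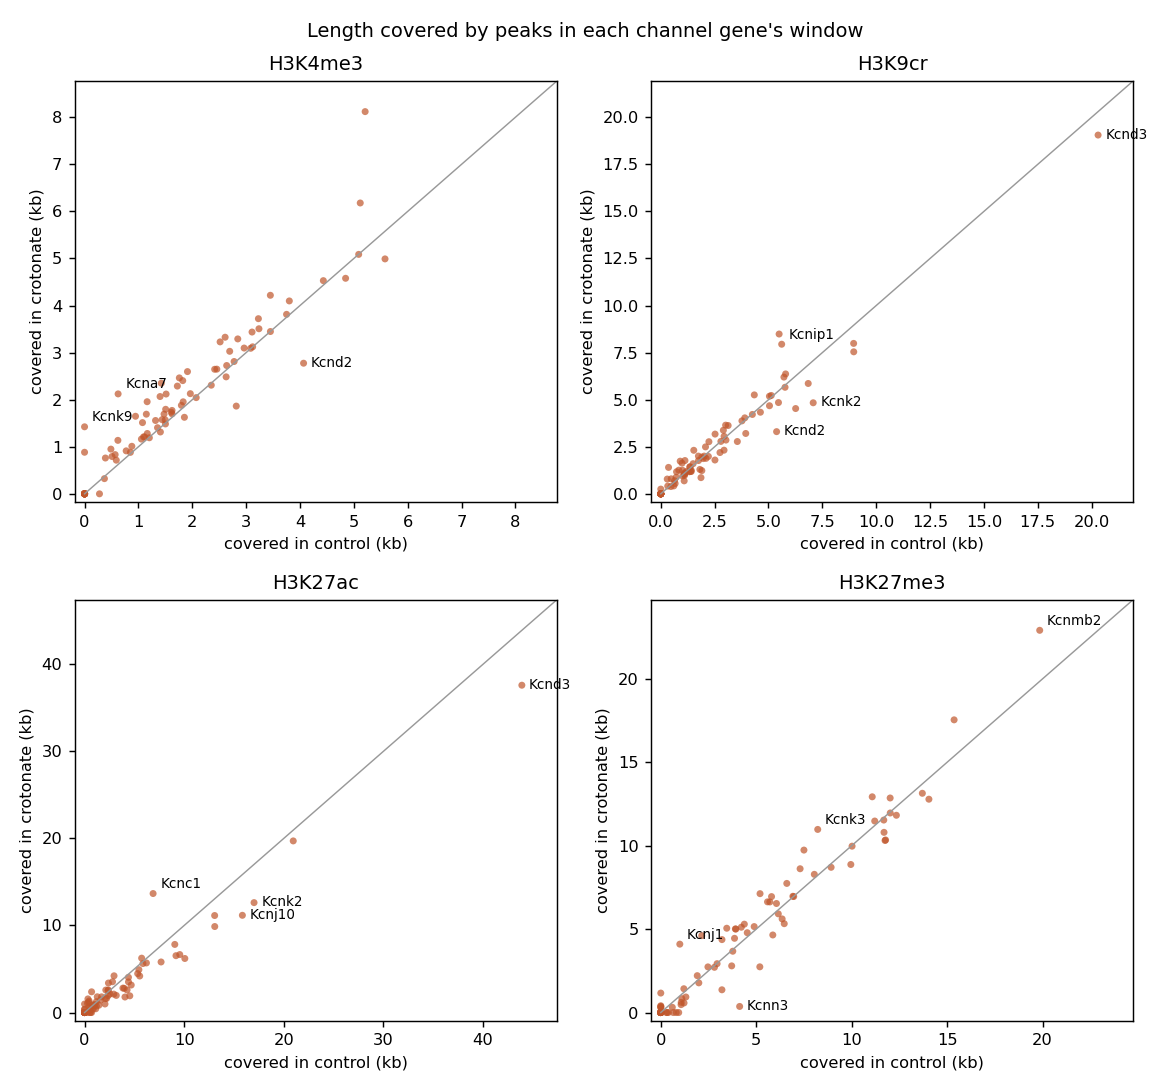
Length covered by peaks in the window of each of the 91 channel genes, crotonate (y axis, kb) against control (x axis, kb), 1 panel per mark. The grey line marks equal length. Kcnc1 lies above the line for H3K27ac (13.7 kb in crotonate, 6.88 kb in control), Kcnd3 below it (37.6 and 43.9 kb), and Kcnn3 below it for H3K27me3 (0.365 and 4.13 kb).

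Marks at the start of transcription were read within 1 kb of the starts listed by RefSeq, which were available for 68 of the channel genes (93 starts). Chromatin with H3K4me3 and H3K27me3 at the same start is called bivalent and is typical of developmental genes that are held silent but ready. Of the 68 genes, 32 (47.1%, 34.8 to 59.6) were bivalent after crotonate and 33 (48.5%, 36.2 to 61.0) in control, where 13.8% and 15.9% of all genes with a listed start were. H3K4me3 alone marked 16 and 12 of the channel genes (23.5% and 17.6%, against 49.8% and 46.5% of all genes). H3K27me3 alone marked 6 and 8 (8.82% and 11.8%, against 4.05% and 3.98%), and neither mark 14 and 15 (20.6% and 22.1%, against 32.4% and 33.6%). H3K9cr was present at 37 of 39 bivalent channel starts after crotonate (94.9%) and 39 of 41 in control (95.1%), against 96.0% and 97.4% of the bivalent starts of all genes. H3K27ac was present at 19 of 39 (48.7%) and 23 of 41 (56.1%), against 61.2% and 73.0%.

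**Figure D4:**
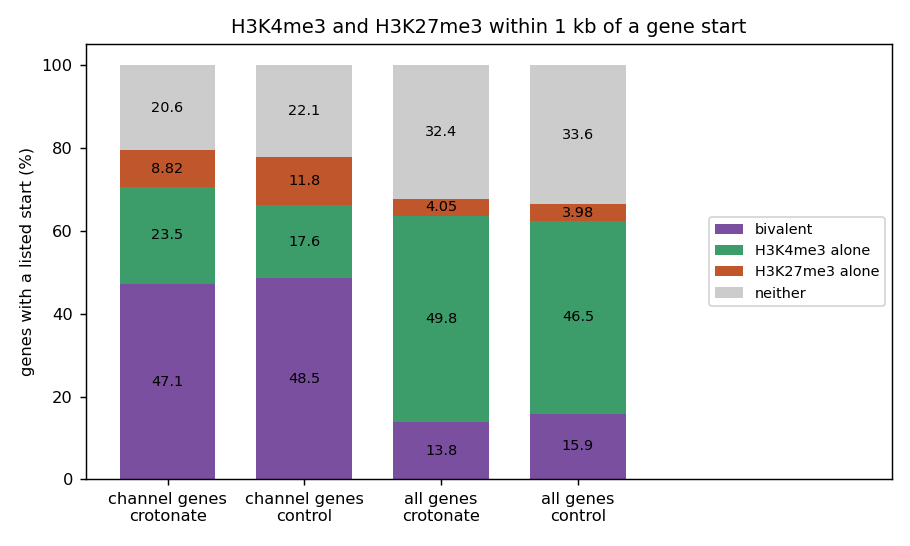
Share of genes with a listed start by the marks within 1 kb of it, for the 68 channel genes and for all 16456 genes, each in crotonate and in control. Bivalent starts (violet) made up 47.1% of the channel genes in crotonate and 48.5% in control, and 13.8% and 15.9% of all genes.

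The state in control limits which change a start can show. Of the bivalent channel genes 87.9% kept their state (77.9% of all such genes), and of those with H3K4me3 alone 100% (98.8%). Where H3K27me3 stood alone in control 50.0% kept it (69.9%), and with neither mark 86.7% (95.3%). Of the 33 genes bivalent in control, 4 had H3K4me3 alone after crotonate (12.1%, where 21.8% of all bivalent genes did): Kcna3, Kcnk2, Kcnk5 and Kcnn3. Where H3K27me3 stood alone in control, 3 of 8 genes were bivalent after crotonate (37.5%, where 24.4% of all such genes were): Kcna7, Kcnip4 and Kcnj5. Kcnj15, 1 of the 8, had neither mark after crotonate (5.19% of all such genes). Kcne2 and Kcnj1, of the 15 genes with neither mark in control, had H3K27me3 alone (3.64% of all such genes). A further gene, Kcnab1, acquired H3K4me3 at the first of its 3 listed starts, while another was bivalent in both treatments and the last had neither mark in either. In the first 4 genes, the 6 starts where the H3K27me3 peak was lost carried H3K27ac and H3K9cr in both treatments. Several of these are neighbouring starts of Kcnk2 that share the same peaks. A further listed start of Kcnk2 had none of the marks in either treatment. The starts that acquired H3K4me3 carried H3K27ac at 0 of 4 in either treatment, and H3K9cr at 4 of 4 after crotonate and 2 of 4 in control. Over all genes the same classes had H3K27ac at 98.0% of 692 starts and 3.19% of 188 starts after crotonate. H3K9cr lay at 69.1% of those 188 starts after crotonate and 26.6% in control, so its rise there was not particular to channel genes.

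The sequences of 4 of these starts are given as picked examples and do not stand for their classes. They run from 250 bases before to 50 bases after the start, on the gene's own strand, from RefSeq on GRCm38.p6. Capitals mark every CG dinucleotide (CpG), the target of DNA methylation, which is dense in CpG islands. CG reads the same on both strands and is found in 95.6% of all 20084 listed starts of this length. Kcna7 (chr7:45405710-45406009, plus strand) and Kcnj5 (chr9:32344295-32344594, minus strand) acquired H3K4me3, and Kcnk5 (chr14:20181733-20182032, minus strand) and Kcna3 (chr3:107035912-107036211, plus strand) lost the H3K27me3 peak.
Kcna7: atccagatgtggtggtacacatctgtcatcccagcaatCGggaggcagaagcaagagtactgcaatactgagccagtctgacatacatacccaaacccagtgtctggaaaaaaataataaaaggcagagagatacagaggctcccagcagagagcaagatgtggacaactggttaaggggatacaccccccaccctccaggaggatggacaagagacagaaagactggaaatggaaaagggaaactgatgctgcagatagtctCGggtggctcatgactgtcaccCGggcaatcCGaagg
Kcnj5: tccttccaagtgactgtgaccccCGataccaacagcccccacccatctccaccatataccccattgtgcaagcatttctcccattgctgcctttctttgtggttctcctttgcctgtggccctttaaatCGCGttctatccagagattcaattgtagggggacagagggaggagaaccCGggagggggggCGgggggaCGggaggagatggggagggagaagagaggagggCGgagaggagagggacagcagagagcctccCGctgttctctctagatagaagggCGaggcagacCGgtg
Kcnk5: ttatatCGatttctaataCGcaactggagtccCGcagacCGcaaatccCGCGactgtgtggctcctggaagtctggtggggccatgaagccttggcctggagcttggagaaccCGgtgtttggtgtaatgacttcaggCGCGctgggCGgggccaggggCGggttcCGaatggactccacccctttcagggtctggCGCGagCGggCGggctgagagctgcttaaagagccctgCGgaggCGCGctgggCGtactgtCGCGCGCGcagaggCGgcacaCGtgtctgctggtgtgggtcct
Kcna3: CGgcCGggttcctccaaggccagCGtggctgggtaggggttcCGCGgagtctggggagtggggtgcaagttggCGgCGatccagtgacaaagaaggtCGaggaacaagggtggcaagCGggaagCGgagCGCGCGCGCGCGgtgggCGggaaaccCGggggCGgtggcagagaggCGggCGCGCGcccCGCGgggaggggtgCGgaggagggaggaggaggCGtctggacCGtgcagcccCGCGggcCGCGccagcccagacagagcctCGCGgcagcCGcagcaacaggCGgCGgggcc
The Kcna7 sequence holds 4 CpGs, a ratio of observed to expected of 0.213 given its C and G content, and that of Kcnj5 holds 10 with a ratio of 0.399. The Kcnk5 sequence holds 26 with a ratio of 0.878 and that of Kcna3 37 with a ratio of 0.952. Of all listed starts, 22.7% had a lower ratio than Kcna7 and 38.3% a lower one than Kcnj5, against 80.0% for Kcnk5 and 87.6% for Kcna3. The 4 starts that acquired H3K4me3 had ratios of 0.213 to 0.433, with a median of 0.331 (0.571 for all genes of that class). The 6 starts where the H3K27me3 peak was lost ranged from 0.138 to 0.978, with a median of 0.86 (0.754 for all genes of that class). The ranges therefore overlap. The lowest was a start of Kcnk2, and the Kcnn3 start had 0.483.

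Of the 12 gained H3K4me3 peaks, 9 touched H3K27me3 peaks in each treatment (75.0%, 42.8 to 94.5), against 51.5% of gained H3K4me3 peaks in all gene windows after crotonate. Of the 105 shared crotonate H3K4me3 peaks in channel windows, 58.1% touched H3K27me3 after crotonate and 65.7% in control, and the interval of the gained peaks holds these values too. H3K9cr was touched by 8 of the 12 after crotonate (66.7%, against 76.8% in all gene windows). In control it was touched by 2 (16.7%, against 52.2%). H3K27ac was touched by 1 in each treatment (8.33%, against 31.2% after crotonate and 31.3% in control). The strongest lay at the first listed start of Kcnab1, which encodes a Kv beta subunit, with a fold enrichment of 11.6 over 574 bp at chr3:64949239-64949812, and a gained H3K9cr peak (fold enrichment 6.42) lay under it. At the Kcnj5 start, which encodes a G-protein-gated inward rectifier subunit, the gained peak had a fold enrichment of 10.4, a pileup of 47 and a width of 883 bp. It stood within an H3K27me3 domain of 8362 bp after crotonate and 7298 bp in control. Kcna7, a Kv alpha subunit, gained a pair of peaks on either side of its start, with fold enrichments of 10.1 and 6.97. Its window was covered by H3K27me3 over 11.8 kb after crotonate and 12.3 kb in control and also touches Ntf5.

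Of the other gained H3K4me3 peaks, the strongest was that of Kcnh6, an ether-a-go-go channel, with 9.55 in its body, together with an H3K9cr peak of 4.99. Kcnk9, a 2-pore channel, had no H3K4me3 in control and a single peak of 1424 bp with a fold enrichment of 7.49 after crotonate, inside H3K27me3 peaks that covered 7.74 kb after crotonate and 6.6 kb in control. It carried no H3K9cr and no H3K27ac in either treatment. The inner start of Kcnip4, which encodes a Kv channel-interacting protein, gained a peak of 5.42, and Kcnc2, Kcna2, Kcnc1 and Kcnk4 gained peaks of 4.65, 4.13, 3.47 and 2.7. The 12 gained peaks stood between the 0.464 and the 17.5 percentile of the crotonate H3K4me3 list. The 4 lost peaks were at Kcne1 (fold enrichment 9.97), Kcnh2 (6.28), Kcnd2 (5.62) and Kcnn1 (5.11). Each of them touched H3K9cr and H3K27ac in both treatments and H3K27me3 in neither, where 95.8%, 83.6% and 14.9% of the lost H3K4me3 peaks in all gene windows touched these marks in control. Kcne1, an accessory subunit of cardiac and inner ear channels, was the only channel gene with H3K4me3 in control alone (0.252% of all genes), and Kcnk9 and Kcnj5 the only ones with it after crotonate alone (1.62% of all genes). The lost Kcne1 peak lay in the flank, and without flanks 0 genes had H3K4me3 in control alone. With flanks of 10 kb 1 gene had it after crotonate alone.

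H3K27me3 was absent after crotonate at 6 channel genes that carried it in control (6.59%, where 3.91% of all genes did). They were Kcnk2, Kcnk5, Kcna3, Kcnv1, Kcnc1 and Kcnj15. The strongest lost H3K27me3 peak of the channel genes lay just inside another gene, Kcnn3, a small-conductance calcium-activated channel, at chr3:89521013-89523609, with a fold enrichment of 6.79 and a width of 2597 bp. The window of Kcnn3 still held 1 weak H3K27me3 peak of 0.365 kb after crotonate, against 4.13 kb over 3 peaks in control. H3K4me3 at its start covered 3.03 kb after crotonate and 2.69 kb in control. Kcnk5, a 2-pore channel sensitive to external pH, lost an H3K27me3 peak of fold enrichment 6.23 over 939 bp at its start, overlapping an H3K4me3 peak of 1734 bp after crotonate and 1611 bp in control. Kcnk2, a 2-pore channel opened by stretch and lipids, lost 2 peaks of 3.79 and 3.52. Kcna3, a Kv alpha subunit best known from lymphocytes and microglia, lost one of 2.98, close to the calling limit, and its H3K4me3 peak covered 6.18 kb after crotonate and 5.12 kb in control. Kcnv1, Kcnc1 and Kcnj15 also lost all their H3K27me3 peaks, with highest fold enrichments in control of 4.61, 2.95 and 3.79.

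H3K27me3 was present after crotonate alone at 5 channel genes (5.49%, where 4.94% of all genes did so): Kcnh4, Kcnk16, Kcne2, Kcna2 and Kcnj14. The highest fold enrichments there were 3.0, 4.36, 3.35, 3.82 and 3.0. By -log10 q they stood at the 9.25 percentile of the crotonate list for Kcnh4 and Kcnj14, 23.6 for Kcne2, 41.6 for Kcna2 and 58.0 for Kcnk16, whose peaks lay in the flank. With equal numbers of peaks in both lists 2 genes were left. The windows of Kcnh4, Kcne2, Kcna2 and Kcnj14 carried the 3 other marks in both treatments, and that of Kcnk16 none of them. At the listed starts of Kcne2 none of the 3 was found in either treatment, and the windows of Kcnh4, Kcne2 and Kcnj14 also touch other genes. Gained H3K27me3 peaks seldom touched an active mark. Of the 78, 0 touched H3K27ac and 1 touched H3K4me3 of the crotonate lists, whereas 10 of the 39 lost peaks touched control H3K4me3. In all gene windows 0.771% of the gained H3K27me3 peaks touched H3K27ac and 1.02% touched H3K4me3, and 25.1% of the lost ones touched H3K4me3.

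Among the 16 Kv alpha subunits, which form the voltage-gated pores, the members differed widely. Of their 22 crotonate H3K4me3 peaks 5 were gained (22.7%, 7.82 to 45.4), against 5.47% in all gene windows. The Kv alpha genes held 90 H3K27ac peaks after crotonate and 72 in control. Of these 37 were gained (41.1%, 30.8 to 52.0) and 26 lost (36.1%, 25.1 to 48.3), against 31.4% and 23.2% in all gene windows. The intervals for gained H3K4me3 and lost H3K27ac lie above the values of all gene windows. They are among many subfamily intervals that were not adjusted for their number. Of the H3K27ac peaks, Kcnc1 held 15 gained and Kcnd3 11 gained and 14 lost, so 2 genes carried most of both counts. Kcnc1 encodes a fast-closing channel of neurons that fire at high rates. Its window held 21 H3K27ac peaks covering 13.7 kb after crotonate and 6 covering 6.88 kb in control, with 15 gained and none lost. Of the 15, 10 lay in the gene body. Only 64 of 20661 genes (0.31%) had at least 15 gained H3K27ac peaks, and 9 of the 7263 genes of 20 to 100 kb. The window also touches Sergef. The peaks were mostly weak: with a -log10 q of at least 3 asked of both lists, 13 crotonate and 5 control peaks remained and 8 were gained, and with peaks within 1 kb counted as the same 12 were gained. The H3K4me3 peak at its start was 4820 bp wide after crotonate and 5090 bp in control.

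Kcnd3, the pore of a transient outward current, carried the most H3K27ac among the channel genes and no H3K27me3 in either treatment, in a window that also touches Ddx20. It had 33 H3K27ac peaks over 37.6 kb after crotonate and 32 over 43.9 kb in control, with 11 gained and 14 lost. Of all 20661 genes 20 lost at least 14, a count not matched for length. Kcnd3 spans 222 kb and lost the most H3K27ac peaks of the channel genes. With a -log10 q of at least 3, 6 of its H3K27ac peaks were gained and 12 lost. With peaks within 1 kb counted as the same, 9 were gained and 7 lost, so which count is larger depends on the setting. H3K9cr peaks numbered 14 over 19.1 kb after crotonate and 18 over 20.3 kb in control. Kcnd2, its close relative, covered 6.21 kb of H3K27ac after crotonate and 10.1 kb in control and 2.77 and 4.07 kb of H3K4me3. Kcna1, the Kv subunit of axons, had 2 H3K27ac peaks over 0.977 kb after crotonate and none in control.

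**Figure D5:**
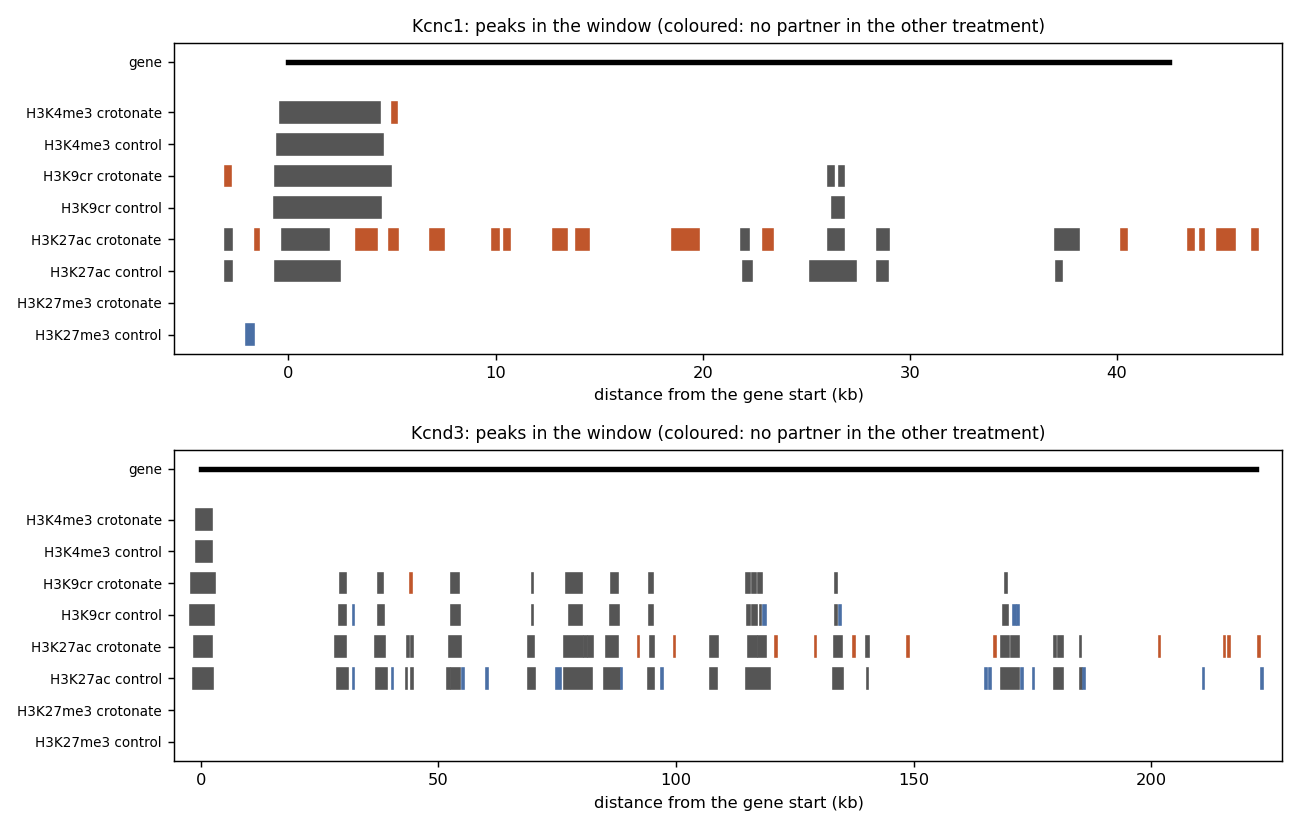
Peaks of the 4 marks in the windows of Kcnc1 (top) and Kcnd3 (bottom) by distance from the annotated start of the gene in the direction of transcription (x axis, kb), with crotonate above control for each mark. Orange (crotonate) and blue (control) peaks have no partner in the other treatment and grey ones do; thin peaks are drawn with an outline that widens them slightly. At Kcnc1, 15 of 21 crotonate H3K27ac peaks are orange, and at Kcnd3 11 of 33 crotonate peaks are orange and 14 of 32 control peaks blue.

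The 10 silent Kv modifiers, which form no channel alone but alter Kv2-type channels, held 11 H3K4me3 peaks in each list, and 9 H3K9cr peaks after crotonate and 8 in control. All of these had a partner. With so few peaks the intervals for a gained share reach 28.5% for H3K4me3 and 33.6% for H3K9cr and hold the 5.47% and 14.7% of all gene windows. H3K27me3 was carried by 8 of them after crotonate and 9 in control, over 56.9 and 52.6 kb, and H3K27ac by 2 and 4. Kcng1 and Kcng3 had H3K27ac in control only, with single peaks of 3.89 and 2.38. Kcng2, whose window holds the widest H3K27me3 of the group, had 17.5 kb after crotonate and 15.4 kb in control. Kcnf1 carried all marks, with H3K27me3 over 0.835 and 1.1 kb.

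The 8 ether-a-go-go genes encode channels that repolarise the heart and damp neuronal firing. All their windows held H3K4me3 in both treatments, and H3K27me3 was found in 8 after crotonate and 7 in control. Within 1 kb of the listed starts of Kcnh2 and Kcnh6 there was no H3K4me3 in either treatment. The window of Kcnh6 also touches Ace3 and Dcaf7. Kcnh3 had one of the widest H3K27me3 domains, 12.8 kb after crotonate and 14.0 kb in control, with H3K4me3 but without H3K27ac. Kcnh5 had H3K27me3 over 4.61 kb after crotonate and 2.15 kb in control, including a gained peak of 2586 bp and fold enrichment 4.91. Kcnh7 lost 4 of its 6 control H3K27ac peaks and covered 1.92 kb after crotonate and 4.54 kb in control. Kcnh2, the gene of the rapid cardiac repolarising current, had H3K9cr peaks numbering 7 after crotonate and 4 in control.

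The 4 Kv7 genes, among them Kcnq3 of the neuronal M-current, carried every mark in both treatments. Gained H3K27me3 peaks numbered 12 of 25 (48.0%, 27.8 to 68.7) and lost ones 5 of 18 (27.8%, 9.69 to 53.5), against 38.6% and 25.4% in all gene windows, which the intervals hold. Kcnq3 had 10 H3K27me3 peaks over 10.3 kb after crotonate and 7 over 11.7 kb in control. Kcnq5 differed from it, with 0.573 and 1.22 kb of H3K27me3 and 6 lost H3K27ac peaks of 12 in control.

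Of the 12 Kv accessory genes, 11 carried H3K9cr in both treatments. Gained H3K9cr peaks numbered 11 of 36 (30.6%, 16.3 to 48.1) and lost ones 4 of 29 (13.8%, 3.89 to 31.7), against 14.7% and 11.9% in all gene windows. The gained interval lies above 14.7%, and it too is 1 of many that were not adjusted for their number. Kcnip1, a calcium-binding partner of Kv4-type channels, held 5 of the gained ones, with 12 peaks over 7.95 kb after crotonate and 9 over 5.61 kb in control. Its window also overlaps Kcnmb1, and 1 of the gained H3K9cr peaks counts for both genes. It carried 24 H3K27ac peaks in each treatment. The subunits Kcnab2 and Kcnip2 carried the active marks without H3K27me3 in either treatment, and Kcne3 carried H3K4me3 over 0.95 kb after crotonate and 0.489 kb in control within 6.63 and 5.59 kb of H3K27me3.

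The 12 calcium- and sodium-activated genes include Kcnma1, the large-conductance channel opened by calcium and voltage. Inside it lay a place where a peak of each of 3 marks was lost: H3K27ac at chr14:23848059-23848793 with a fold enrichment of 8.51, the strongest lost H3K27ac peak of all channel genes, H3K9cr at chr14:23848259-23848601 with 6.33, and H3K27me3 at chr14:23849515-23850850 with 5.86. The window also held 11 H3K27ac peaks after crotonate and 8 in control, over 4.04 and 4.41 kb. Kcnmb2, a beta subunit of that channel, had the widest H3K27me3 of all members, 22.9 kb after crotonate and 19.8 kb in control. Kcnn2, a relative of Kcnn3, had H3K27me3 over 2.74 and 5.19 kb and H3K27ac over 2.59 and 4.27 kb. Kcnt1, a sodium-activated channel, had 5 H3K27ac peaks after crotonate and 1 in control.

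The 15 inward rectifiers pass potassium more easily into the cell than out of it. Kcnj10, the main inward rectifier of glia, had an H3K4me3 peak at its start with a fold enrichment of 112 after crotonate and 74.8 in control. A stronger one (197 after crotonate, 258 in control) lay in the flank of its window, which also touches Pigm. H3K27ac in the window covered 11.2 kb in 10 peaks after crotonate and 15.8 kb in 5 peaks in control, without H3K27me3 in either treatment. Kcnj2 and Kcnj16 likewise carried the active marks and no H3K27me3. Kcnj1, a channel of the kidney, had none of the active marks and H3K27me3 over 4.1 kb in 6 peaks after crotonate and 0.997 kb in 1 peak in control, the largest widening of H3K27me3 among the channel genes. Kcnj4 and Kcnj3, subunits of neurons and heart, carried 13.1 and 6.95 kb of H3K27me3 after crotonate and 13.7 and 5.8 kb in control.

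The 14 2-pore channels, whose leak currents set the resting potential, lost more H3K9cr peaks than they gained. Gained were 2 of 20 (10.0%, 1.23 to 31.7) and lost 9 of 27 (33.3%, 16.5 to 54.0), against 14.7% and 11.9% in all gene windows. The lost interval lies above the value of all gene windows. It is 1 of many intervals over subfamilies, marks and directions, and none was adjusted for their number. The losses were spread over Kcnk2, Kcnk10, Kcnk13 and Kcnk12, with 3, 3, 2 and 1. Kcnk10 lost the strongest, with a fold enrichment of 7.17, at a place with H3K27ac in both treatments. Over all subfamilies 25 of the 29 lost H3K9cr peaks touched control H3K27ac (88.7% in all gene windows). In Kcnk2 H3K9cr covered 4.84 kb after crotonate and 7.08 kb in control, and H3K27ac 12.6 and 17.0 kb. Kcnk3, an acid-sensitive channel, had H3K27me3 over 11.0 kb after crotonate and 8.22 kb in control and H3K27ac over 2.38 and 0.706 kb. H3K9cr peaks in the lists of the whole genome were lower after crotonate, and the part of that difference in these losses was not tested.

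A list of 30 genes whose products work with these channels, such as sulphonylurea receptors, Dpp and Amigo partners, ankyrins, Hcn channels, sodium pumps and potassium chloride cotransporters, was read in the same way. H3K4me3 lay in 29 windows after crotonate and 27 in control, against 69.7% and 68.4% of all genes. Lgi1 and Lrrc26 were marked after crotonate alone (1.62% of all genes) by single peaks of 5.16 and 4.13. Both carried H3K27me3 and H3K9cr in both treatments and no H3K27ac. H3K9cr lay in all 30 windows in both treatments (72.2% and 71.0% of all genes) and H3K27ac in 23 and 23 (70.3% and 69.5%). H3K27me3 lay in 23 and 25 windows (36.1% and 35.1% of all genes). It was found in control alone (3.91% of all genes) at Atp1b1, among others, with a fold enrichment of 4.07. Slc12a7, a cotransporter, had 12 H3K27ac peaks over 7.71 kb after crotonate and 2 over 2.42 kb in control.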

How the data were processed

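Native ChIP-seq peak lists of 8 libraries were used, 1 for each combination of mark and treatment. The 2 input libraries were not analysed here. The submitters' processing notes name Bowtie2 2.4.1, MACS2 2.2.7.1 and the build GRCm38. How peaks were called and whether the inputs served as background is not given in the sources used here. MACS2 columns make up the tables, per the file headers. Pileup was deposited as a coverage signal at each summit, fold enrichment was deposited as the ratio of pileup to local background, and the deposited -log10 p-value and -log10 q-value belong to the summit. Peak length is deposited in bp. All of them come from the authors, and here they serve only to describe, rank or filter peaks within a list.

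Peaks were assigned with Python 3.11.15, pandas 2.3.3 and NumPy 2.4.6 to gene bodies extended by 5 kb, from the RefSeq table of GRCm38.p6, and to 1 kb either side of the starts in the RefSeq promoter table. An overlap of 1 bp made peaks shared. The overlap code was tested on simulated intervals. Intervals are exact (Clopper-Pearson, SciPy 1.17.1), treat peaks as independent and cover counting error only. With no replicates there was no test and no p-value between treatments.

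Subfamilies, partner genes, marker genes and the members were chosen with earlier results of these data known. Genes were named for a mark in 1 treatment only, for the 3 strongest unshared peaks per mark and direction, for the most unshared peaks of a subfamily, and for the widest or most different H3K27me3 or covered length, 40 in all. Other genes were named after their values were seen. Results of single genes that are withheld are not reported here.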

Additional observations from a re-analysis of the deposited data

How the results depend on the processing

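The shares of gained and lost peaks and the counts of genes marked in 1 treatment only, 16 values in all, were recomputed under 8 alternatives. Of the 128 values, 103 stayed near the reported ones. For a share this means within the reported 95% interval, which is wide, and for a gene count within a factor of 1.5. The gene counts do not use the sharing rule, so the 50% overlap and 1 kb alternatives could not move them. With overlap of 50% of both peaks required, the gained share was 29.3% for H3K9cr, 54.5% for H3K27ac and 58.0% for H3K27me3, and the lost share was 12.5% for H3K4me3, 27% for H3K9cr, 48.3% for H3K27ac and 47.0% for H3K27me3. With peaks within 1 kb counted as shared, it was 24.9% gained and 19.4% lost for H3K27ac and 25.9% gained and 14.3% lost for H3K27me3. With peaks within 3 kb merged, it was 9.74% lost for H3K9cr, 20.7% lost for H3K27ac, and 26.0% gained and 16.2% lost for H3K27me3. With a -log10 q of at least 3 in both lists, 23.2% of H3K27ac peaks were gained and 3 genes had H3K27me3 after crotonate only. With equal numbers of peaks in both lists, 27.4% of H3K27me3 peaks were gained and 2 genes had that mark after crotonate only.

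Gene counts also moved with the window. H3K4me3 after crotonate only was found at 1 gene with flanks of 10 kb and 4 genes without peaks that touch other genes, and in control only at 0 genes without flanks and 2 genes without peaks that touch other genes. H3K9cr after crotonate only was found at 2 genes without flanks and 2 genes with flanks of 10 kb. These shifts follow from stricter or looser sharing, shorter lists or other windows. No paired analysis was possible because each mark had 1 library per treatment. Read depth is unknown, so weak peaks in 1 list only cannot be told apart from peaks just under the calling limit.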
